A study of Sus scrofa with 12 samples.

Results

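The transcripts described here lie wholly inside introns. The 12 assemblies came from the longissimus dorsi (LD) of Iberian pigs, a muscle of the loin. A transcript counted as intronic when it lay on an assembled chromosome, within the span of a gene of the RefSeq annotation of Sscrofa11.1, and shared no base with any annotated exon on either strand. Of 433576 transcripts on chromosomes 76941 (17.7%) met this rule. Intronic transcripts that overlapped between libraries were merged, which gave 20639 regions in 5887 host genes. The annotated genes with a transcript numbered 15017, and 12516 further loci lay elsewhere. The gene around a region is called its host. In the files 90.7% of the intronic transcripts had no strand, while 2599 lay on the strand of their host and 4583 on the opposite strand.

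The pigs were castrated males of a closed Iberian purebred population, fattened free-range on acorns and grass, with siblings excluded and 1 library per pig. The H group held 6 pigs with high breeding values for intramuscular fat (IMF), and their labelled IMF ran from 10.62 to 13.8%. The L group held 6 pigs with low values, with 1.7 to 2.28% IMF. Fattening and slaughter took place in batches, and the batch and lane of a pig are not given in the sources used here. Group differences therefore cannot be told apart from differences between batches.

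An intron is transcribed as a part of the pre-mRNA and removed by the spliceosome while or shortly after the RNA is made. Reads inside introns can come from pre-mRNA, from introns kept in an mRNA, from exons missing in an annotation, or from separate genes that lie inside a larger one. In muscle, the giant gene DMD and other long genes carry introns far longer than their exons.

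The sequences below belong to the regions on which the results turn. All are read from the plus strand of Sscrofa11.1 (RefSeq). The first 3 regions are those that differed between the groups. They lie in introns of EXOC2 (chr7:201064-201893), GAPVD1 (chr1:266007952-266009068) and AXIN1 (chr3:41378551-41379775), and their first 300 bases are shown. Capitals mark runs of at least 10 A or T and the hexamer AATAAA or its complement TTTATT.
EXOC2 region: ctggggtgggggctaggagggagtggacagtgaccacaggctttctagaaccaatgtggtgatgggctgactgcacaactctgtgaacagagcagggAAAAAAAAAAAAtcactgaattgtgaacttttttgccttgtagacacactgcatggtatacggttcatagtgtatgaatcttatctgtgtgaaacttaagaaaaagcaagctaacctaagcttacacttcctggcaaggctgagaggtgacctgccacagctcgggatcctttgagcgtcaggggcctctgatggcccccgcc
GAPVD1 region: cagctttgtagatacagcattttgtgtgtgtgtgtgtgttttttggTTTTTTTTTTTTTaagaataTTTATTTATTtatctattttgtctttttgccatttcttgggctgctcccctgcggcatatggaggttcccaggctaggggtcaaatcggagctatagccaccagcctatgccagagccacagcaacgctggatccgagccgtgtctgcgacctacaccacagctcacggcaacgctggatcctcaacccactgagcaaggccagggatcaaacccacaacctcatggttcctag
AXIN1 region: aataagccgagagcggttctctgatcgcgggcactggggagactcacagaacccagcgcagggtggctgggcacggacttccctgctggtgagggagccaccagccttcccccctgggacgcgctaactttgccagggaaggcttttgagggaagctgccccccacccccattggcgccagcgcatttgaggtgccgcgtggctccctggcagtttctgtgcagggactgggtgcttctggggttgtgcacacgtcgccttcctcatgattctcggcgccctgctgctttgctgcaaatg
The EXOC2 stretch holds a run of 12 A, the GAPVD1 stretch a run of 13 T and overlapping hexamers, and the AXIN1 stretch neither a run nor a hexamer. The next 3 are shown because they match sequence found elsewhere. The regions in LOC106504325 (chr7:10867722-10868342) and LRRC43 (chr14:30530522-30530916) match a ribosomal DNA unit. For that in METTL8 (chr15:77558208-77558728) the best match was sequence annotated to exons of ZC3H10, and the gene it derives from was not tested. Their first 300 bases are given, with the stretch that the search matched in capitals.
LOC106504325 region: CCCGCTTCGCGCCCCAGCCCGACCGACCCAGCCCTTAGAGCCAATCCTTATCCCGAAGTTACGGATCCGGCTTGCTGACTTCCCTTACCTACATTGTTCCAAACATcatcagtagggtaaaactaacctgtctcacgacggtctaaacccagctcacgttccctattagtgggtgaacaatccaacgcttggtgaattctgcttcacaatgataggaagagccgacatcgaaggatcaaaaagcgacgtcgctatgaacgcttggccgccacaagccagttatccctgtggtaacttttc
LRRC43 region: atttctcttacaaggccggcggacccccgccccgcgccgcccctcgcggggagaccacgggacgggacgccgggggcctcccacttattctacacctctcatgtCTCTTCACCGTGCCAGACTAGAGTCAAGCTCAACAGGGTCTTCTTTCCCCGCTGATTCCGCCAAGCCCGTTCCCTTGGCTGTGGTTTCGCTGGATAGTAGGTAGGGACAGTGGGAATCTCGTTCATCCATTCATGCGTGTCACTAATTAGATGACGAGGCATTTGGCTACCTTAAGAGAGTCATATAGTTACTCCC
METTL8 region: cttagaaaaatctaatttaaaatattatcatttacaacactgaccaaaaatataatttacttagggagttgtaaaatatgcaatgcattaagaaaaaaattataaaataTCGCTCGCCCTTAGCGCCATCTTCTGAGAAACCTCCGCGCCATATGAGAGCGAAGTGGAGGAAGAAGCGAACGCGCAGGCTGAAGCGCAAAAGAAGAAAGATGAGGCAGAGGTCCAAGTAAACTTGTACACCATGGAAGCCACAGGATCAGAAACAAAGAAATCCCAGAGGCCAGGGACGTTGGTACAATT
The last 3 are whole regions under 200 bases with very high values, in TENM2 (chr16:56796723-56796790), LOC106504887 (chr9:44201007-44201073) and GPX6 (chr7:22260531-22260609). Capitals again mark the run of A.
TENM2 region: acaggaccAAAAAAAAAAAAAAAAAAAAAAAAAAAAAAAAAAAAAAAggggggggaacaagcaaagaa
LOC106504887 region: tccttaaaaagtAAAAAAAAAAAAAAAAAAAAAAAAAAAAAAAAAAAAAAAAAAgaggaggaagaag
GPX6 region: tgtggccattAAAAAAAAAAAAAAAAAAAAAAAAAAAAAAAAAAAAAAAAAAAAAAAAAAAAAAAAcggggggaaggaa

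The coverage in the files came to 9.76 to 17.5 gigabases per library. The coverage per FPKM, which grows with the number of mapped fragments, ran from 7.50 to 11.5 and averaged 9.73 in H and 9.64 in L. Exonic markers fitted the labelled tissue, with summed levels of 7 skeletal muscle genes between 26087 and 38773 FPKM. The summed level of 6 adipocyte genes ran from 54.7 to 151 FPKM in H and from 32.7 to 85.0 in L, that of 4 erythroid genes from 85.4 to 299 and from 73.0 to 161, that of 3 endothelial genes from 43.1 to 108 and from 29.6 to 88.7, that of 3 macrophage genes from 7.26 to 12.2 and from 4.07 to 11.4, and that of 3 fibroblast genes from 117 to 442 and from 136 to 507. SLC4A1 of the erythroid and CD68 of the macrophage genes were listed at 0 in all libraries. The part of these cell types in the results below was not tested. In bulk muscle, fewer cells of a type and less RNA per cell cannot be told apart. The library of H4 stood apart with many intronic transcripts and that of L3 with few, so results are also given without both.

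Intronic transcripts were short and weak. Their median length was 892 bases, and 5% were below 304 and 5% above 2861 bases. Their median level was 0.39 FPKM, scaled between libraries, with quartiles of 0.269 and 0.683 FPKM. Set against the exons of the host in the same library, a transcript of at least 200 bases reached a median of 16.9% of the exonic FPKM (quartiles 8.86 and 28.2%, n = 67714 transcripts). Cufflinks leaves out alignments inside introns when they are scarce beside the exons around them, so a region listed at 0 can hold reads.

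Most regions were seen in few pigs. Of the 20639 regions 10704 (51.9%) were found in 1 library, 3397 in 2 and 297 in all 12. Regions found in 1 library had a median length of 766 bases and those found in all 12 of 6651 bases. Transcripts of several libraries were merged in the latter, and the part of merging in their length was not tested. The 297 regions of all libraries lay in 226 hosts and covered 2.25 megabases. Findings in H libraries made up 68.5% of the regions seen once, 60.0% of those seen in 4 libraries and 52.3% of those seen in 10. Of the 7329 regions seen once in H libraries, H4 alone held 2493 and the other H libraries 741 to 1089 each. With 6 libraries in each group this share is bounded ever more closely around 50% from 7 libraries upward and fixed at 50% for all 12, so that the fall over those classes is in part set by the design.

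**Figure D1:**
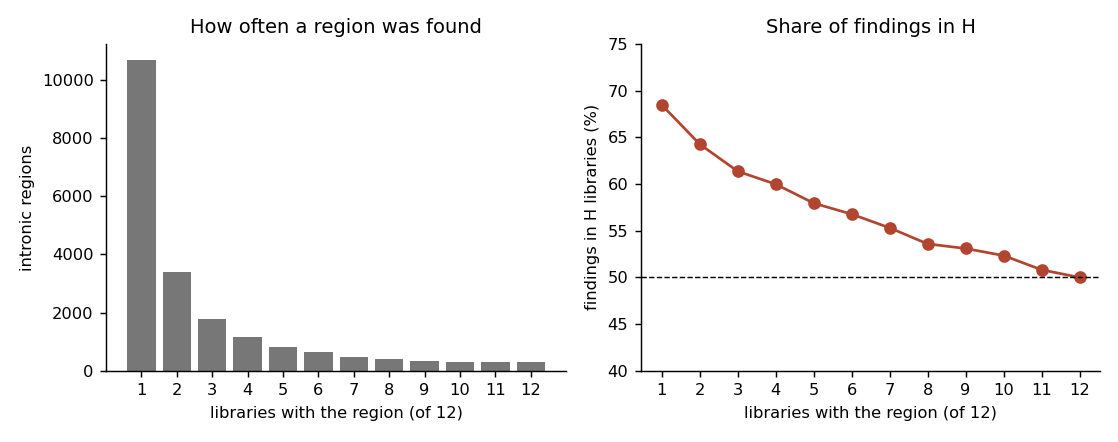
The left panel plots the number of intronic regions (bars) against the number of libraries that held them, and the right panel the percentage of findings that came from H libraries. Most regions, 10704, were found in 1 library, and the share of H is 68.5% for those, of which H4 alone held 2493. From 7 libraries upward the share is bounded around 50%, and at 12 it is 50% by design.

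Intronic regions covered 31.4 of the 1243 megabases of exon-free gene space (2.52%) and lay in 11018 of 215704 exon-free stretches (5.11%). The stretch around a region had a median length of 8425 bases, against 1429 bases over all stretches. Regions were densest in introns of 1000 to 2000 bases, at 38.1 per megabase, and thinnest in those under 500 bases, at 4.83 per megabase. Above 50000 bases the density was 7.96 per megabase, but 18.9% of these long introns held a region. Within the intron, divided into 5 equal parts from its 5′ end, the middle part held 26.2% of the regions and the last 14.0%. Regions were placed by their midpoint and had to lie wholly inside the intron. A region that is long beside its intron therefore falls in the middle part, and these shares were not corrected for that. First introns held 15.5% of the regions and 19.7% of the intron bases.

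Most hosts were protein-coding, with 19014 regions (92.1%), and 1510 regions lay in lncRNA genes. A single region was seen in 2151 hosts (36.5%), while 74 hosts held at least 20. Genes of medium exonic level were the most frequent hosts. Among genes with introns and an average of 2 to 10 FPKM over their exons 49.1% (2399 of 4886) were hosts, with 32.7 regions per megabase of intron. Above 50 FPKM 16.2% were hosts, and 3.45% of the genes listed at 0 over their exons.

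**Figure D2:**
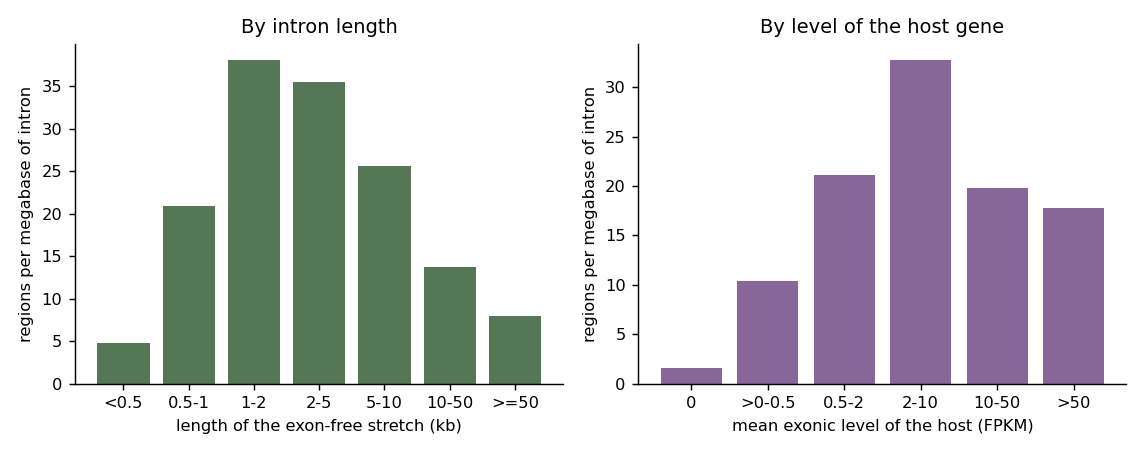
Bars give the intronic regions per megabase of intron, by the length of the exon-free stretch in kilobases (left) and by the mean exonic FPKM of the host over 12 libraries (right). Introns of 1 to 2 kb reach 38.1 and hosts of 2 to 10 FPKM 32.7 regions per megabase, the highest bars.

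The host with most regions was DMD, which codes for dystrophin, the protein that links the cytoskeleton of the muscle fibre to the membrane. It held 113 regions, which covered 9.64% of its 2603 kb of introns, and 9 of them were found in all 12 libraries. These 9 lay in 6 introns of 79673 to 347124 bases, were 3025 to 28485 bases long and had median levels of 0.146 to 1.58 FPKM. The intronic level of a host was the product of FPKM and length in kilobases, summed over its regions of at least 200 bases, which scales with the number of fragments (FPM). DMD had a lowest value of 97.7, a median of 182 and a highest of 265 in H, and of 45.6, 114 and 152 in L. The groups overlapped, and the difference did not pass the test (log2 fold change 0.78 ± 0.39 SE, limma adjusted p = 0.266).

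RORA, a nuclear receptor of the circadian clock, held 81 regions over 41.9% of its introns, 6 of them in all libraries. Its intronic level ran from 19.2 to 122 FPM in H and from 13.4 to 87.4 in L, with medians of 62.0 and 37.5. ZBTB20, a zinc finger repressor, held 57 regions and ran from 24.0 to 63.2 and from 30.3 to 57.1 FPM. PRKG1, a cGMP-dependent protein kinase, held 43 regions, and RBM20, a splicing regulator of titin in striated muscle, held 41 over 26.1% of its introns. AUTS2 and the nuclear receptor ESRRG held 40 each, TTLL11 39, the phosphatase PPM1L 37 and TP63, of the p53 family, 37. Values of both groups overlapped in all 10 hosts, and their log2 fold changes ran from -0.26 in RBM20 to 2.67 in PPM1L with adjusted p of at least 0.137. In PPM1L the intronic level was 23.3 ± 18.04 FPM in H and 5.58 ± 6.38 in L (SD, n = 6 each), at exonic levels of 6.85 and 6.37 FPKM. Beside DMD, RORA, ZBTB20 and TP63, the hosts with the most intronic FPM were LOC106504325, LRRC43, TRDN, SESN1, a stress-induced regulator of growth, LOC106504743 and RAMP3, a partner of the calcitonin receptor-like receptor. SESN1 ran from 0 to 99.6 FPM in H and from 0 to 87.2 in L, and RAMP3 from 0 to 34.9 and from 30.8 to 37.7.

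Of the regions of at least 200 bases found in all libraries, the 3 with the highest median levels matched sequence found elsewhere. In LOC106504325 the match found was short. The LOC106504325 region was listed at 6332 to 35727 FPKM in H (median 14948) and at 3221 to 20939 in L (median 5062), while the exons of its host were listed at 0. The LRRC43 region was listed at 4131 to 21576 and at 2102 to 13482 FPKM. The former exceeded the latter by 1.39 to 1.66 times in every library. The first 106 of 621 bases of the LOC106504325 region matched the ribosomal DNA unit at 98.1% identity, and 289 bases of the LRRC43 region at 97.9%. The ribosomal sequence searched came from a single scaffold. Whether the other bases of the LOC106504325 region are ribosomal was not tested. The 3 regions with such a match carried 41.0 to 85.2% of the intronic FPM of a library. The METTL8 region matched sequence annotated to exons of ZC3H10 over 79.1% of its length at 96.4% identity. It was listed at 22.8 to 55.1 FPKM in H and at 23.8 to 57.2 in L, while METTL8 itself averaged 0.661 and 0.712 FPKM. In all, 38 regions matched an exon, mitochondrial sequence or ribosomal sequence elsewhere over at least 50% of their length.

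Other abundant regions found in all libraries had no such match. CD99, which codes for a surface glycoprotein and is annotated on chromosome Y, held regions of 358 and 616 bases in intron 9, listed at 19.7 to 55.0 and at 10.9 to 24.5 FPKM over the 12 libraries, beside exons at 251 FPKM in H and 240 in L. A region of 3011 bases in intron 1 of MOSPD1 was the steadiest of the abundant ones, at 6.72 to 9.94 FPKM in H and 6.56 to 9.07 in L. SSBP2 held a region at 2.62 to 5.32 FPKM in H and 3.59 to 7.47 in L. In MAP4K3, a region with a run of 17 A or T was listed at 248 FPKM in L3 and at 1.30 to 41.6 in the other libraries. In TEX14, a gene listed at 0 over its exons in all libraries but 1, a region of 640 bases was listed at 1.84 to 8.67 FPKM in H and 2.51 to 19.5 in L. None of the abundant regions named here passed the test, with adjusted p of at least 0.592.

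Transcripts under 200 bases, 957 in all, carried FPKM values that give no measure of abundance. Cufflinks divides by an effective length, which nears 0 for transcripts shorter than a fragment. The TENM2 region of 68 bases was listed at 2.48e+06 to 5.39e+06 FPKM in H and at 1.55e+06 to 1.21e+07 in L, though the exons of TENM2 were listed at 0. The regions in LOC106504887, GPX6, PLCB1 and USP32 were 57 to 79 bases long, and all 5 held a run of 31 to 56 A or T. They entered no sum of levels below.

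Few intronic transcripts were spliced. There were 587, in 211 regions, and 342 of their 359 introns (95.3%) had standard splice site bases, against 98.3% of all introns in the files. Among spliced transcripts 264 ran on the strand of the host and 323 on the opposite strand. The most exons, 6, belonged to a region in LOC102162878, on the strand opposite to it and found in 6 H libraries at 0.221 to 0.501 FPKM and in 5 L libraries at 0.0558 to 0.334. A region of 5 exons lay in LOC100737081, and regions of 4 exons were found in all 12 libraries in SLC35F1, a gene of the solute carrier families, and in KCNQ5, a potassium channel, and in 11 in BANP. The composition of the regions was set against all exon-free gene space, which holds shorter introns than those around the regions. GC made up 43.2% of their bases and 42.0% of exon-free gene space, and repeats 37.0 and 35.7%. Repeats made up 43.2% in the regions found in all libraries. The hexamer AATAAA, on either strand, stood in the first 1000 bases of 75.4% of the regions of that length and in 79.9% of all intron windows of 1000 bases, in which matches can overlap those of other motifs. In the 100 bases past the 3′ end of the regions, read on the strand of the host, a run of 10 A stood in 4.18% and a run of 10 T in 6.70%, against 1.98 and 2.64% of all such windows. Before the 5′ end the shares were 6.06 and 5.199%.

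More intronic transcripts were assembled in the H than in the L libraries. Their number had a lowest value of 5743, a median of 7208 and a highest of 10261 in H, and of 3410, 5496 and 6203 in L. All H libraries but H5 lay above every L library. The means were 7509 ± 1512 and 5315 ± 995 (SD, n = 6 pigs each), which differ 1.41-fold (two-sided exact permutation test, p = 0.00649, or 0.0118 when adjusted over 20 measures). The share of intronic transcripts among all transcripts of a library was 19.5% ± 2.30 in H and 15.5% ± 2.19 in L (exact permutation test, p = 0.00649). Without H4 and L3 the difference fell from 2194 to 1262 transcripts (exact permutation test, p = 0.0238).

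The other counts moved with it. A library held 4136 to 7740 regions in H and 2439 to 4366 in L, with means of 5435 ± 1221 and 3737 ± 682 (exact permutation test, p = 0.00649, and p = 0.0238 without H4 and L3, where the difference fell from 1698 to 977). Host genes numbered 2601 ± 338 in H and 1983 ± 294 in L (exact permutation test, p = 0.00433). Regions found in no other library numbered 741 to 2493 in H and 408 to 655 in L, with no overlap (exact permutation test, p = 0.00216, the smallest this design can give), and 374 more in H without H4 and L3. Transcripts of at least 1 FPKM numbered 1054 to 1454 and 613 to 950, again with no overlap (p = 0.00216 by the exact permutation test). For transcripts below 0.25 FPKM the counts were 1495 ± 1081 and 1063 ± 546 (exact permutation test, p = 0.442), for spliced transcripts 51.7 ± 4.97 and 46.2 ± 6.08 (exact permutation test, p = 0.130), and for transcripts under 200 bases 88.0 ± 20.1 and 71.5 ± 12.5 (exact permutation test, p = 0.115). The median length of a transcript was 889 ± 15.03 bases in H and 897 ± 18.01 in L (exact permutation test, p = 0.461).

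**Figure D3:**
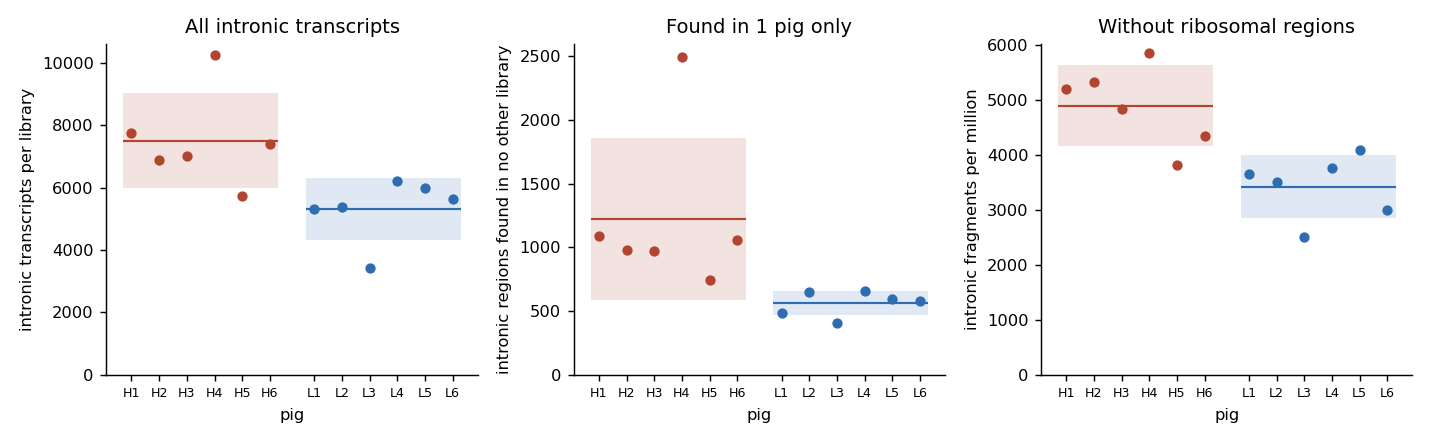
Each point is 1 pig, with the group mean as a line and 1 SD on either side as a band, for all intronic transcripts, for regions found in no other library and for intronic FPM without the ribosomal regions. In the middle panel all H pigs (741 to 2493) lie above all L pigs (408 to 655), and H4 and L3 are the extremes of the left panel.

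Summed intronic levels were also higher in H once the ribosomal regions were left out. With them, intronic FPM were 19130 ± 8918 in H and 10456 ± 5882 in L, and the difference did not pass the exact permutation test (p = 0.0584). Without them they ran from 3811 to 5844 in H and from 2502 to 4077 in L, with means of 4891 ± 729 and 3413 ± 571 (exact permutation test, p = 0.00433, and p = 0.0159 without H4 and L3). H5 was the H library inside the range of L. Over the 378 hosts with intronic transcripts in every library, the median-ratio level of introns was 1.24 ± 0.137 in H and 0.936 ± 0.167 in L, relative to the scaling on genes (exact permutation test, p = 0.00649). These last 2 measures were chosen after the data were seen. The number of intronic transcripts was set against the coverage per FPKM, and over the 6 H libraries the relation did not pass the adjustment at 0.05 (Pearson r = 0.83, exact permutation p = 0.0278, Spearman rho = 0.94, p = 0.0167, adjusted over 4 sets of libraries 0.111 and 0.0667). Over all 12 r was 0.55 (permutation test, p = 0.0585) and rho 0.45 (p = 0.146), over the 6 L libraries 0.49 (exact permutation p = 0.332) and 0.54 (p = 0.297), and without H4 and H5, the 2 libraries farthest from the median, r was 0.38 (permutation test, p = 0.286) and rho 0.31 (p = 0.386). The coverage per FPKM did not differ between the groups by more than their spread (exact permutation test, p = 0.905).

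Single regions were tested together with genes and other loci in 1 limma fit on log2(FPKM + 0.5), in which fold changes of low values are understated. A region was tested when either group averaged 0.5 FPKM or more, which 1322 of the 20639 regions passed, so that a region found mostly in 1 group enters only if it is high there. At an adjusted p under 0.1, 4 of 14793 features (0.027%) were called, and 3 of them were intronic regions (0.227% of those tested), all higher in H. With no filter 3 of 20639 regions were called. At an unadjusted p under 0.05 the tested regions were higher in H in 174 cases (13.2%) and lower in 33 (2.5%), against 468 (3.77%) and 415 (3.34%) of 12409 genes, while 8.19% of all features tested passed it in either direction. With no filter 577 regions were higher and 108 lower at that p, together 3.32% of all regions.

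The 3 regions were found in all H libraries and in no L library. EXOC2 codes for a subunit of the exocyst, which tethers secretory vesicles to the membrane. Its region of 830 bases in intron 30 of 34 ran from 1.02 to 2.50 FPKM in H with a median of 1.195 and was listed at 0 in L (log2 fold change 1.90 ± 0.19 SE, limma adjusted p = 0.00485). GAPVD1, a regulator of Rab5 in endocytosis, held a region of 1117 bases in intron 20 at 0.389 to 1.21 FPKM in H with a median of 0.927 (log2 fold change 1.43 ± 0.20, limma adjusted p = 0.0449). AXIN1, the scaffold of the complex that degrades beta-catenin, held a region of 1225 bases in intron 5 at 0.436 to 1.08 FPKM in H with a median of 0.811 (log2 fold change 1.34 ± 0.19, limma adjusted p = 0.045). With every L value at 0, the SE of these 3 regions draws no spread from L, and the fold change depends on the value added before the logarithm. For EXOC2 it ran from 1.25 to 3.86 over all fits. The exons of the hosts were at 14.6 FPKM in H and 14.4 in L for EXOC2, at 7.59 and 8.78 for GAPVD1 and at 8.01 and 8.24 for AXIN1, with log2 fold changes of 0.02, 0.00 and -0.04. The regions reached 6.41 to 17.8%, 3.97 to 20.2% and 4.89 to 20.9% of the exonic FPKM of their hosts. Repeats made up 21.7% of the bases of the EXOC2 region, 62.4% of the GAPVD1 region and 5.80% of the AXIN1 region. In the L libraries 5% of single-exon intronic transcripts of 500 to 1500 bases were listed below 0.157 to 0.223 FPKM, and no transcript of another kind covered the 3 regions there. Those values are taken over all hosts, so they cannot tell whether reads in these 3 introns were left out beside the exons of their hosts. With the individual number as a block no region passed, and without any of H4, L1, L2 or L6, or both H4 and L3, 1 did (EXOC2). Without H3, H5, H6 or L4 there were 13, of which 1 was lower in H, 6, 8 and 5.

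**Figure D4:**
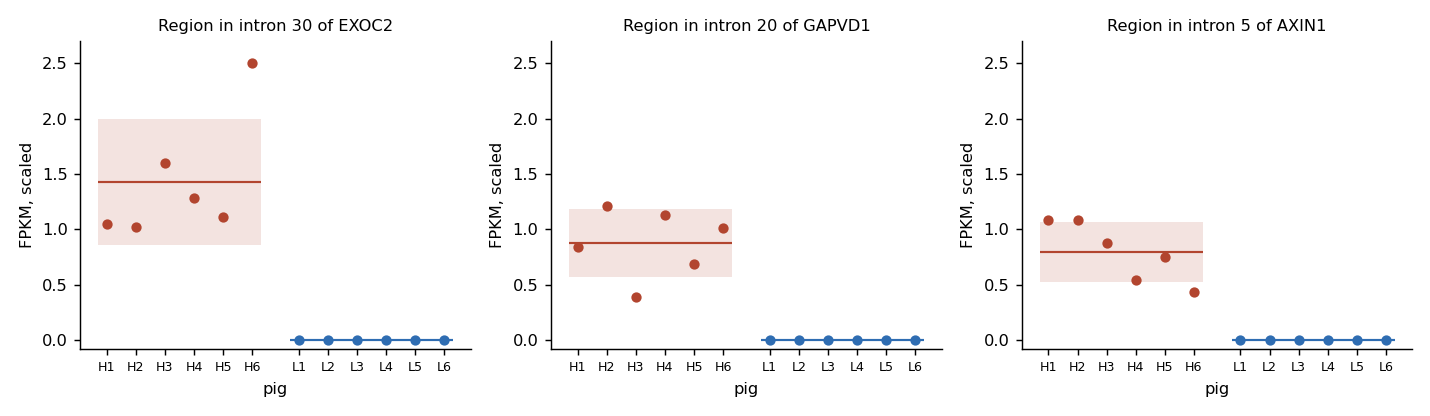
Points give the scaled FPKM of the regions in EXOC2, GAPVD1 and AXIN1 in each pig, with the group mean as a line and 1 SD as a band. The 6 L pigs lie at 0 in all panels, and H pigs between 0.389 and 2.50 FPKM.

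In all, 11 regions were found in all 6 H and no L library (0.398% of the 2762 regions found in at least 6 libraries), and 0 in all 6 L and no H library. Of 12855 annotated genes listed in at least 6 libraries 2 (0.0156%) were listed in that way in H and 0 in L. Only a feature found in exactly 6 libraries can be listed so, which holds for 635 of the regions. The number among the genes was not counted, so the shares of regions and genes cannot be compared. Beside the 3 above the regions lay in USP48, a deubiquitinase (0.118 to 0.657 FPKM in H), PTPN23, a phosphatase of endosomal sorting (0.223 to 0.450), NFYA, a subunit of the CCAAT-binding factor (0.121 to 0.313), ZNF782 (0.0917 to 0.253), LRIG2 (0.0484 to 0.256), LCORL (0.120 to 0.172), LOC110256747 (0.0599 to 0.226) and LOC106505799. Their exonic log2 fold changes, where tested, ran from -0.25 in USP48 to 0.48 in LRIG2. With 1 exception allowed on either side, 175 of 3592 regions (4.87%) were found mostly in H and 38 (1.06%) mostly in L. The lowest p among regions lower in H belonged to TEX14 (log2 fold change -1.15 ± 0.28, limma adjusted p = 0.382), PPP6R3, PDE4C and 2 neighbouring regions of RBM24, an RNA-binding protein of muscle differentiation. The RBM24 regions were listed at 0 in all H and in 2 L libraries and reached 13.3 and 12.6 FPKM in the others. When levels of any transcript over these regions were taken, their fold changes turned to 1.00 and 1.17, and those of PPP6R3 and PDE4C to 0.55 and 0.79, so that these 4 directions hold for intronic transcripts alone.

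Host genes were tested on the summed intronic level of their regions, in FPM, and 1859 of 5812 hosts with a region of at least 200 bases passed the filter. At an adjusted p under 0.1, 39 hosts (2.1%) were higher in H and 0 lower (0%). With no filter 16 of 5812 were called, all higher. At an unadjusted p under 0.05, 338 (18.2%) were higher and 38 (2.04%) lower. The median log2 fold change over all 1859 hosts was 0.44, and 75.1% were above 0. Over all 5812 hosts, with no filter, it was 0.14, and 71.1% were above 0. In the 1678 hosts tested on both levels, which had passed the filter on their introns, it was 0.44 for introns and 0.05 for exons, and 0 were called on their exons with the same limma test, with 146 (8.7%) at an unadjusted p under 0.05 beside 7.12% of all genes. When libraries were scaled on the introns themselves, a choice made after the data were seen, the median fell to 0.18 and 12 hosts were called, all higher in H.

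The lowest adjusted p of the 39 hosts belonged to CDH15. It codes for M-cadherin, the adhesion molecule of myogenic cells, and its 8 regions covered 51.3% of 13.04 kb of introns. Its intronic level ran from 2.28 to 8.91 FPM in H with a median of 4.59 and was listed at 0 in all L libraries but L6, at 0.881 (log2 fold change 3.08 ± 0.40, limma adjusted p = 0.00189). The exons of CDH15 were at 12.5 ± 4.31 and 14.7 ± 4.30 FPKM (SD, n = 6 each), a log2 fold change of -0.27. MLIP, a partner of lamins in muscle, was at 0 to 8.09 in H with a median of 3.42 and at 0 in L (log2 fold change 2.67 ± 0.55, limma adjusted p = 0.0421). LMO7, a LIM domain protein of cell junctions, LIMS1, an adaptor of integrin-linked kinase, and ABLIM1, an actin-binding LIM protein, passed with log2 fold changes of 2.23, 1.83 and 1.53. The exons of LIMS1 were at 18.7 FPKM in H and 11.98 in L (unadjusted p = 0.0269 in the limma fit).

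U2AF2, which codes for the large subunit of the splicing factor that binds the 3′ ends of introns, held 5 regions and ran from 0 to 13.7 FPM in H with a median of 10.1, against 0 in all L libraries but L4, at 2.44 (log2 fold change 3.10 ± 0.74, limma adjusted p = 0.0597). ADARB1, an RNA editing enzyme, PUM2, a repressor that binds mRNA, and TRUB1, a pseudouridine synthase, had log2 fold changes of 1.63, 1.85 and 1.47. The kinases LATS2, of the Hippo pathway, and MAP4K2 had 1.31 and 1.195, the ubiquitin ligase parts PELI2 and CUL2 1.85 and 1.69, and AXIN1, GAPVD1 and EXOC2 2.07, 2.15 and 2.41. SLC25A25, a mitochondrial ATP carrier, was listed in all libraries, at 1.45 to 4.90 in H and at 0.265 to 0.768 in L, with no overlap (log2 fold change 1.41). TEF, a transcription factor of the clock, had 2.31, but its fold change turned to -0.12 when any transcript over its regions counted. In the same fit TBRG1 went from 1.503 to 0.012 (limma adjusted p = 0.99) and CEP192 from 2.77 to 0.51 (limma adjusted p = 0.195), and 7 of the 39 hosts were no longer called. The other hosts were ARAP1, C16H5orf34, CEP192, EEF1AKMT2, FAM222B, GABPB2, GMEB2, ILKAP, KIAA0232, LOC106509807, LOC110261042, NABP1, SLC38A10, SLC9A3R2, SNAP23, TBRG1, USP48, ZDHHC4, ZEB2, ZNF782 and PTPN23, at 1.17 to 2.94.

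Over the 39 hosts the exonic log2 fold change had a median of 0.09 and ran from -0.45 to 0.87, and 5 of them had an unadjusted p under 0.05, of which CUL2 alone had a negative fold change (-0.45). In 22 of them the intronic levels of the groups did not overlap, and 10 were listed at 0 in all L libraries. The 39 were called on the difference between these same groups, so both counts follow in part from that choice. The same counts over all hosts tested were not made. For the 10 at 0 in L, the SE draws no spread from L. The count depended on single libraries. It was 104 without H3, 60 without L4, 22 without H2, 14 without L3, 12 without H4, 10 without L1, 10 without L6 and 3 without both H4 and L3, of which AXIN1 and CDH15 were among the 39. With the individual number as a block it was 23, of which 19 were among the 39. In the fit on intronic transcripts of all libraries 0 hosts were called lower, while without H1, H2, H5, L2 or L3 1 was, without L5 2, without H3 3 and without L4 4. When any transcript over the regions counted, 165 hosts were called higher and 7 lower, and 32 of the 39 were among those called. Outside the rule for named genes, the lowest p among hosts lower in H belonged to MYO1E, ARHGAP26, LOC100526084, STARD13 and TEX14, with log2 fold changes of -1.77 to -0.93 and adjusted p of at least 0.119.

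**Figure D5:**
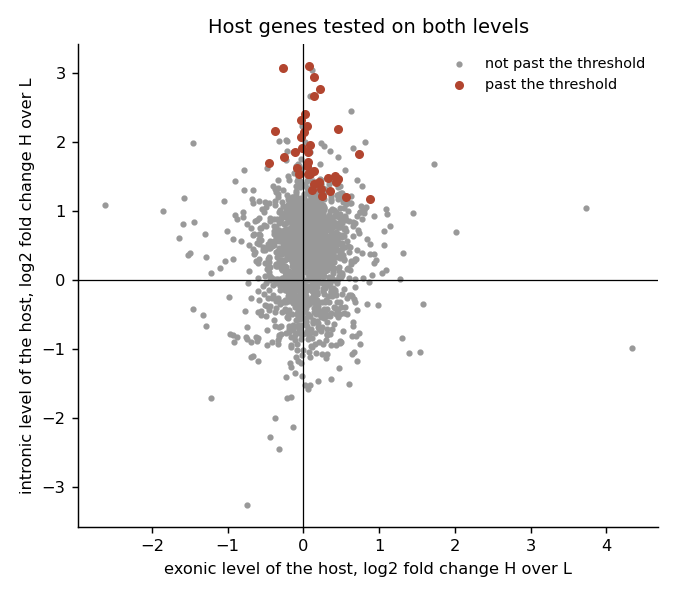
Each point is a host tested on both levels, with the log2 fold change (H over L) of its exonic FPKM on the x axis and of its intronic FPM on the y axis. The hosts past the threshold, in red, lie above 1 on the y axis and between -0.45 and 0.87 on the x axis.

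Of 35 sarcomere and Z-disc genes 15 were hosts, with 41.8 regions per megabase of intron beside 25.6 over all genes that averaged 0.5 FPKM or more, of which 41.1% were hosts. Among 11 tested, 0 were called and the median log2 fold change was 0.70, beside 0.44 over all hosts. NEB, the ruler of the thin filament, held 30 regions and TTN, the giant spring of the sarcomere, 9. Both were among those tested, with log2 fold changes of 1.68 and 1.05. The exons of TTN averaged 390 FPKM in H and were listed at 0 in L, and those of NEB ran from 0 to 3932 FPKM. Intronic levels of TTN were listed in 2 H and 0 L libraries. Whether these loci were left out of some assemblies, and its part in the median, was not tested. In NEB the intronic level was 1.56 to 15.8 FPM in H and 0 to 14.95 in L. The dystrophin-associated complex had 7 hosts of 16 and 166 regions, most of them in DMD and 31 in LAMA2, the laminin chain of the fibre's basement membrane, at 18.04 ± 8.30 FPM in H and 26.6 ± 15.8 in L. Of its 4 tested members 0 were called, with a median of 0.18. Excitation-contraction coupling had 6 hosts of 19 and 10 regions. TRDN, which codes for triadin of the calcium release unit, ranged from 0 to 268 in H and from 0 to 177 in L, and 0 of 3 tested members were called (median 1.35).

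The circadian clock had the highest share of hosts among the 13 lists, 10 of 14 genes (71.4%) with 129 regions, 81 of them in RORA. Of 8 tested members TEF was called, and the median was 0.42. Splicing factors and kinases had 16 hosts of 31 with 100 regions per megabase, among them SRSF11 with 8 and SRSF4 with 6, and 0 of 9 tested were called (median -0.02). Immediate early genes, which are short, had 5 hosts of 14 and 205 regions per megabase, with 12 regions in NR4A3 and 10 in ATF3. Neither of the 2 tested was called, and their median was -0.95. Class IIa HDAC and MEF2 genes had 3 hosts of 7, with 28 regions in HDAC9, whose introns were at 4.08 ± 2.94 FPM in H and 2.88 ± 1.67 in L while its exons were at 4.22 and 11.2 FPKM (unadjusted p = 0.00483 for the exons in the limma fit, log2 fold change -1.29).

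In the lists of metabolism the share of hosts was below the 41.1% of all genes that averaged 0.5 FPKM or more. This was not particular to them. Excitation-contraction coupling (31.6%), immediate early genes (35.7%), atrophy and FOXO genes (35.7%) and hosts of small nucleolar RNAs (12.8%) lay below it as well. The counts are small, and the lists were not matched to other genes in exonic level or intron length. Glycogen and glycolysis genes had 5 hosts of 16, and the 3 tested, PFKFB1, PFKFB3 and PKM, had a median of -0.20. Fatty acid oxidation had 3 hosts of 15, with 6 regions in ACACB, whose introns were at 1.24 ± 1.93 FPM in H and 0.563 ± 0.617 in L (adjusted p = 0.72, limma). Lipid synthesis and adipocyte genes had 6 hosts of 23 and 18 regions, with 5 in ACACA, 5 in ELOVL6 and 3 in GPAM, and 0 members reached the level needed for the test. Oxidative phosphorylation had 1 host of 11, NDUFAF6. Hosts of small nucleolar RNAs, which code for their snoRNAs inside introns, had 5 hosts of 39 and 6 regions, with 1 tested (log2 fold change -0.0025). Atrophy and FOXO genes had 5 hosts of 14, with 9 regions in ATG7, and 0 of 2 tested were called (median 0.89).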

How the data were processed

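RNA of the LD of 12 pigs was sequenced as paired reads, 1 library per pig. The authors checked and trimmed reads with FastQC and Trim Galore, aligned the reads by TopHat2 2.1.0 (build Sscrofa11.1) and assembled each library with Cufflinks 2.2.1 and an Ensembl annotation. The deposited files hold transcripts with their FPKM and coverage, and no read counts, so that count tests were not used. Here transcripts were placed on the RefSeq annotation, and levels were scaled by median ratios of genes (factors of 0.891 to 1.13). Features and hosts were tested with limma 3.58.1 (R 4.3.3) on log2(value + 0.5), with a variance trend, a minimum mean of 0.5 in at least 1 group and Benjamini-Hochberg adjustment at 0.1. Library measures were compared with exact two-sided permutation tests over 924 arrangements (Python 3.11.15, NumPy 2.4.6, SciPy 1.17.1, pandas 2.3.3), and sequences with BLAST+ 2.17.0. On simulated data the fit on all 14793 features recovered 58 of 100 changes of 1.2 on the log2 scale. It recovered 81 of 100 changes of 2, with 18 false calls. The fit on 1859 hosts recovered 31 and 90 of 100, with 18 false calls. Of the 14793 features 12409 were genes and 1322 intronic regions. Recovery for regions alone, or for features listed at 0 in a whole group, was not tested.

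Regions named were the 10 most abundant and the 5 most abundant under 200 bases found in all libraries, the 5 with most introns, those past the threshold with the 5 lowest p in each direction, and up to 10 found in all libraries of 1 group only. Hosts named were the 10 with most regions, the 10 with most fragments, those past the threshold and up to 3 of each gene list. Some items that the rule selects are not reported here. MYO1E, ARHGAP26, LOC100526084, STARD13 and TEX14 as lower hosts, and LOC106505799, were chosen after their values were seen. The members and lists were chosen with earlier results of these data known.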

Additional observations from a re-analysis of the deposited data

Results flagged for a closer look

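In 74 groups of 6 libraries, 16 had a library whose gap to its nearest neighbour was large beside the range of the group (Dixon's test at the 95% level), a limit that chance passes in about 1 of 20 groups. L3 was low in 5 measures, with 3410 intronic transcripts (the other L libraries 5313 to 6203), a share of 11.3% (15.6 to 17.4%), 2439 regions (3734 to 4366), 959 regions found in 6 to 11 libraries (1502 to 1754) and 1420 host genes (1970 to 2257). H4 was high in regions found in no other library, 2493 against 741 to 1089, and in transcripts on the opposite strand, 579 against 344 to 416. The median transcript length of L2 was 863 bases, below 896.5 to 915 in the other L libraries. Intronic FPM were 36032 in H2 (11408 to 20453) and 21979 in L1 (6579 to 11037), and the LOC106504325 region with the ribosomal match was at 20939 FPKM in L1 (3221 to 9668).

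Single regions stood apart in 1 library as well. The METTL8 region was at 22.8 FPKM in H6 (48.8 to 55.1) and at 23.8 in L4 (47.8 to 57.2). The CD99 region of 358 bases was at 55.0 FPKM in H3 (19.7 to 30.1), the MAP4K3 region at 248 in L3 (1.45 to 32.1), and the LOC106504887 region of 67 bases at 3736150 in H5 (583162 to 1652580). The causes of these values were not tested.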

How the results depend on the processing

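The higher number of intronic transcripts and of regions in H kept its direction and its side of the threshold under every alternative run, with differences of 1643 to 2547 transcripts and 1237 to 1958 regions when 1 library was left out. The difference in intronic FPM was -148630 with no length minimum (exact permutation p = 0.303) and 1478 without the ribosomal regions (exact permutation p = 0.00433), and 5293 to 10979 when 1 library was left out, passing without H1, H4 or L1. Of the regions, 1 was called at a mean of at least 1 FPKM, 1 with quantile normalization, 9 with summed FPKM (8 higher and 1 lower in H), 14 when any transcript over a region counted (13 higher and 1 lower), 1 without H4 and L3, and 1 to 13 with 1 library left out. Of the hosts, 16 were called with no filter, 172 when any transcript counted (165 higher and 7 lower), 12 with scaling on the introns, 3 without H4 and L3, and 10 to 104 with 1 library left out. With the individual number as a replicate block 0 regions and 23 hosts passed. Same-numbered pigs of both groups did not deviate together (correlations of -0.117 to 0.0377, 1 of 6 best with its own number). These correlations cannot exclude that such pigs shared a batch. Within each group the numbers ran from the highest to the lowest labelled breeding value. The cause of the changes in these counts was not tested.

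Of 2158 alternative values of 102 named regions and hosts, 1756 kept direction and call, 338 lost the call, 15 gained it and 49 changed sign. On the log2 scale these were, with quantile normalization, METTL8 0.0623, TENM2 0.0887 and MOSPD1 0.0374, and with summed FPKM METTL8 0.0521 and CD99 0.34. Without H4 and L3 they were MAP4K3 0.73, LOC106504743 -0.19, PRKG1 0.0945, RORA -0.10 and SRSF11 0.0056. With any transcript they were PPP6R3 0.55, PDE4C 0.79, RBM24 1.17 and 1.00, PFKFB1 0.61, PKM 0.16, PRKG1 0.0539, SRSF11 1.99 and TEF -0.12, and with scaling on the introns HDAC9 -0.0246, LOC106504743 -0.29 and ZBTB20 -0.31. With 1 library left out the ranges were -0.0666 to 0.63 for ACACB, -0.19 to 0.0051 for CD99, -0.0487 to 0.32 for LOC106504743, -0.46 to 0.0733 for LOC106504887, -0.92 to 0.47 for MAP4K3, -0.23 to 0.15 for METTL8, -0.0772 to 0.0294 for MOSPD1, -0.54 to 0.24 for PFKFB1, -0.16 to 0.19 for PRKG1 and -0.43 to 0.14 for SRSF11. The files give FPKM and coverage but no read counts, and the fragments behind a single FPKM were not counted.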
